A study of Mus musculus with 15 samples.

Results

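The transcripts of 10 genes that set, copy or remove repressive marks on DNA and histones were followed through the development of the mouse secondary palate, the roof of the mouth. They are the DNA methyltransferases *Dnmt1*, *Dnmt3a* and *Dnmt3b*, the DNA methylation cofactor *Uhrf1*, the dioxygenases *Tet1*, *Tet2* and *Tet3*, and the Polycomb repressive complex 2 genes *Ezh1*, *Ezh2* and *Suz12*. They were picked by name from the 54232 genes of the deposited table, and all 10 were among the 22151 genes abundant enough to be tested. Palates came from wild-type mice on embryonic day 13.5 (E13.5), on the days E14.5, E15.5 and E16.5, and at birth (P0). The labels give no strain, sex or treatment. Each of the 5 stages had 3 libraries of bulk RNA, and each library pooled the dissected palates of 3 embryos, so replicate error here is the spread between pools. Nothing in the labels says whether pools of a stage came from separate litters.

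DNA methylation is copied to the new strand behind the replication fork by DNMT1, which UHRF1 recruits to half-methylated DNA. DNMT3A and DNMT3B set methyl groups at sites that had none, and the TET enzymes oxidise 5-methylcytosine, which opens the way to its removal. Polycomb repressive complex 2 (PRC2) methylates lysine 27 of histone H3 and keeps developmental genes silent. EZH2 and EZH1 are its alternative catalytic subunits, and SUZ12 is a core subunit that the complex needs with either of them. In many tissues EZH2 is the enzyme of dividing cells and EZH1 that of resting or differentiated cells.

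Libraries held 21.5 to 69.02 M counts, and 3 counts, taken as the detection floor, amounted to 0.0435 to 0.140 CPM, the unit that rescales every library's counts to the same total. Floors cover counting error only. Every gene of the set lay far above this floor in every library. Mitochondrial genes took 1.49% to 2.83% of the counts, with the highest share in P0 replicate 2. The labelled tissue was checked against 7 palate mesenchyme markers, whose summed level was 2259 to 3773 CPM at E13.5. Most of this sum was the collagen gene *Col3a1*, with a mean of 2072 CPM, while *Prrx1* had 375 CPM and *Osr2* 63.6 CPM. The sum of 7 epithelium markers was 253 to 574 CPM at E13.5. The summed count of 4 Y-linked genes was 7 to 12 in the E16.5 libraries, at most 0.323 CPM. It was nearly as low in E13.5 replicate 1 (0.425 CPM), E15.5 replicate 1 (0.343 CPM) and P0 replicate 2 (0.402 CPM). In the remaining libraries it was 60.7 to 201 CPM, so this level differed within stages as well as between them. All 10 genes are autosomal, and the part of this difference in any result was not tested. In bulk tissue, fewer cells of a type and less RNA per cell cannot be told apart.

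Promoter sequence differed within the set in 1 feature that the comparisons below return to, the letters bound by E2F factors, which drive genes of the S phase. RefSeq promoter windows on GRCm38.p6, from 250 bases before to 50 bases after a start site, were matched by symbol for all 10 genes (15 windows). They were searched on both strands for TTTCCCGC, TTTCGCGC, TTTGCCGC and TTTGGCGC. At least 1 of these runs was in a window of 4 of the 10 genes, *Dnmt1*, *Uhrf1*, *Ezh2* and *Suz12*. The share among all 27025 genes with a window was 2.60%. Counted per window, a unit unlike the 4 of 10 genes, it was 2.26% of all 32851 windows. It was 5.15% of the 8701 windows with at least 20 CpG dinucleotides. Each of the 4 genes held its runs in 1 window only. Of the 18 S phase genes with a window, drawn from the list used below, 7 held a run. The letters CCAAT, by comparison, were in a window of 5 of the 10 genes and of 41.1% of all genes. A match describes the letters and does not show a bound site.

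The 3 stretches of 250 bases before the start are shown because they set a pair of genes with E2F letters beside *Ezh1*, the only one of the 10 genes that rose. *Tet1*, *Dnmt3a*, *Dnmt3b* and *Tet3* had no such letters in their windows and fell as well. A tie between the letters and the direction of change was not tested. Bases are 5′ to 3′ on the strand of the gene, and capitals mark the E2F letters. The *Uhrf1* stretch is chr17:56304063-56304312 on the plus strand, that of *Suz12* is chr11:79992856-79993105 on the plus strand, and that of *Ezh1* is chr11:101226464-101226713 on the minus strand.
Uhrf1: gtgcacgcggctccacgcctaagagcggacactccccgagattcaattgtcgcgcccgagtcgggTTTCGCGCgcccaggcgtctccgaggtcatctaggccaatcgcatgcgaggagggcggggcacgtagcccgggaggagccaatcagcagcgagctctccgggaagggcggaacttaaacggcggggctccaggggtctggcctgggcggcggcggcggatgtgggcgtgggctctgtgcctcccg
Suz12: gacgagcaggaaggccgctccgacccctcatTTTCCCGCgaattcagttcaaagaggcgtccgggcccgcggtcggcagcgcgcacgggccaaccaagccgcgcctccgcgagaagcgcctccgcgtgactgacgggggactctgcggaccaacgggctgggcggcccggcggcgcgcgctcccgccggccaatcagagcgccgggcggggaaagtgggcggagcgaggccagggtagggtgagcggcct
Ezh1: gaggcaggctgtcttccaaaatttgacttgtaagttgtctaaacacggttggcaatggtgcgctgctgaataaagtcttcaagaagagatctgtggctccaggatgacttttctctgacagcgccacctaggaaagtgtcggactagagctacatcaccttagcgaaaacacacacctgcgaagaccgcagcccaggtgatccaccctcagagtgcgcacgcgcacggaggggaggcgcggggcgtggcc

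For *Dnmt1* and *Ezh2* the matches lie in annotated exons, and 30 bases around each are given. Of the 3 *Dnmt1* windows, the one around the start at position 20952623 of chromosome 9 held both matches. The upstream piece is chr9:20952824-20952853, with the letters read on the opposite strand, and the downstream piece is chr9:20952574-20952603. The *Ezh2* piece, chr6:47595009-47595038, starts 8 bases before the start site. All 3 pieces are on the minus strand.
Dnmt1 upstream: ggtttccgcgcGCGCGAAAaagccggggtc
Dnmt1 downstream: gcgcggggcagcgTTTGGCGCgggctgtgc
Ezh2: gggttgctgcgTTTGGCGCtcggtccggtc

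Between E13.5 and P0, 8 of the 10 genes fell, *Ezh1* rose and *Tet2* did not pass the test (edgeR's quasi-likelihood test, Benjamini-Hochberg adjusted p under 0.05 over 22151 genes). Among all tested genes 56.6% passed in this comparison, 26.8% lower and 29.8% higher at P0, so a change as such was common while 8 falls among 10 genes stood beside a nearly even split. The median log2 fold change of the 10 genes was -1.36, against 0.03 over all tested genes. For 9 of the 10 genes the 3 libraries of one stage lay wholly above the 3 of the other, as did those of 59.1% of all tested genes. The largest fall was that of *Ezh2*, 3.71-fold, followed by *Tet1* (3.11-fold), *Uhrf1* (2.91-fold) and *Dnmt1* (2.90-fold). All 9 calls were kept when any single library of the 2 stages was left out.

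**Figure D1:**
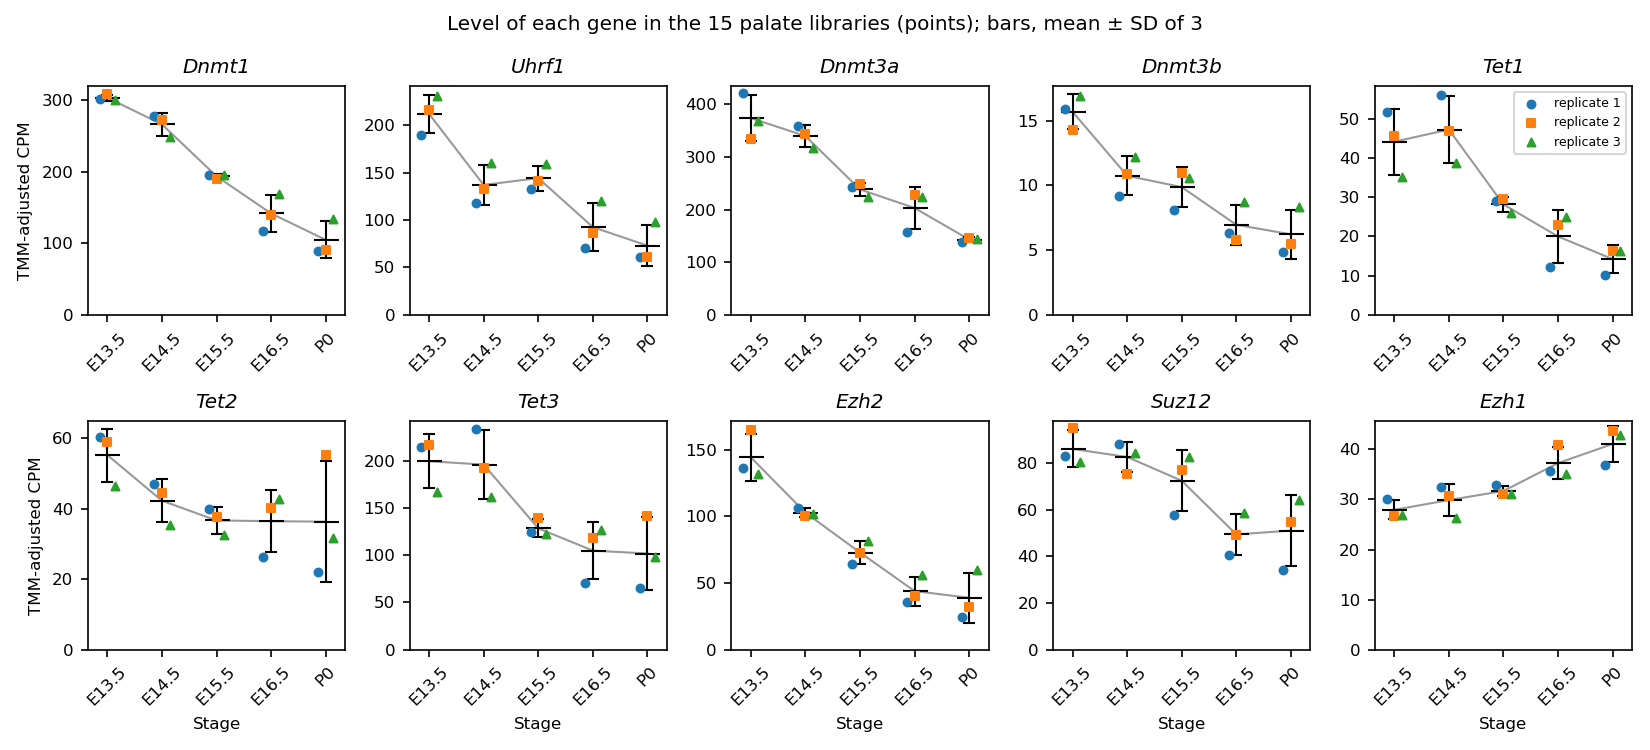
Level of each of the 10 genes in the 15 palate libraries, in TMM-adjusted CPM on axes that start at 0, by stage. Points are libraries with 1 symbol per replicate number, and bars are the mean and SD of 3. Most panels step down from left to right, *Ezh1* climbs from 27.9 to 41.1 CPM, and P0 replicate 2 stands high in *Tet2* and *Tet3*.

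**Figure D2:**
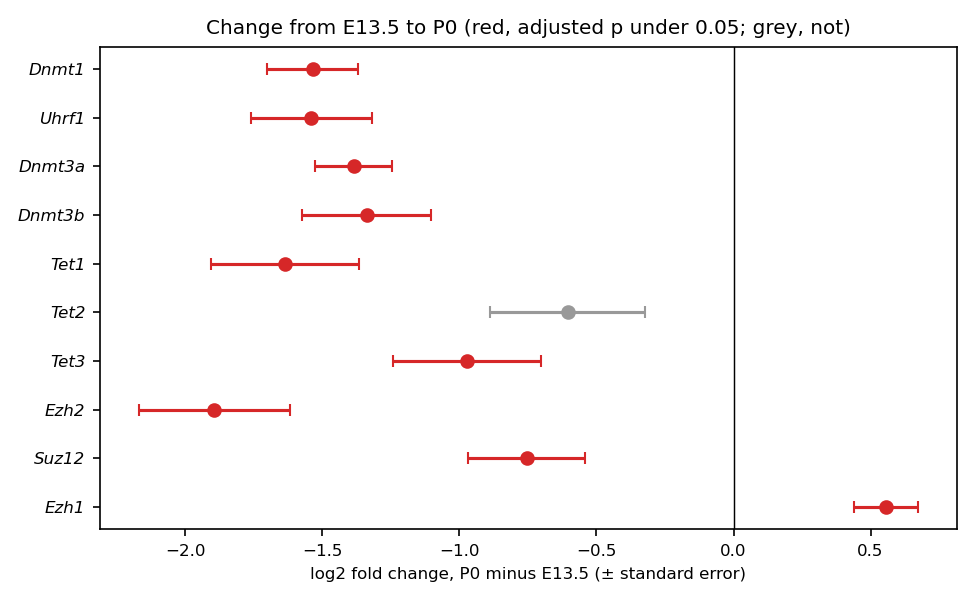
Log2 fold change of each gene from E13.5 to P0 with its standard error, in red where the adjusted p is under 0.05. *Ezh2* lies furthest left at -1.89, *Tet2* is the only grey point at -0.60, and *Ezh1* alone is right of 0 at 0.56.

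Levels of different genes were compared per length, as CPM per kilobase of merged exons. At E13.5 the maintenance pair led, with *Uhrf1* at 49.8 ± 4.78 (SD, n = 3) and *Dnmt1* at 41.2 ± 0.56 CPM per kilobase. *Dnmt3a* at 22.5 ± 2.65 and *Ezh2* at 21.6 ± 2.63 came next and differed by less than their spread. *Suz12* stood at 17.4 ± 1.60 and *Tet3* at 11.97 ± 1.70. The last 4 genes, *Ezh1* (3.75 ± 0.26), *Tet2* (3.27 ± 0.45), *Dnmt3b* (3.07 ± 0.26) and *Tet1* (2.86 ± 0.55), lay close together, and neighbours in this order overlapped in mean ± SD. At P0 *Uhrf1* (17.1 ± 5.002) and *Dnmt1* (14.2 ± 3.50) were still first but no longer apart from each other by more than their spread. *Suz12* (10.3 ± 3.10) and *Dnmt3a* (8.61 ± 0.26) followed. *Tet3* (6.10 ± 2.29), *Ezh2* (5.82 ± 2.80) and *Ezh1* (5.52 ± 0.49 CPM per kilobase) could not be ordered, and *Tet2* (2.15 ± 1.02), *Dnmt3b* (1.22 ± 0.37) and *Tet1* (0.92 ± 0.23) were the lowest. *Ezh2* had thus moved from the level of *Dnmt3a* to that of *Ezh1*.

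*Dnmt1*, the maintenance methyltransferase (ENSMUSG00000004099.16, GRCm38 chr9:20907209-20959888, minus strand), stepped down from stage to stage. Its levels were 302, 309 and 301 CPM in replicates 1, 2 and 3 at E13.5, 279, 272 and 248 CPM at E14.5, and 195, 191 and 196 CPM at E15.5. They were 117, 139 and 169 CPM at E16.5 and 89.9, 90.0 and 135 CPM at P0. Up to E16.5 each stage lay wholly below the one before, while E16.5 and P0 overlapped through P0 replicate 3. The stage means ran from 304 ± 4.17 to 105 ± 25.8 CPM (SD, n = 3), and the change from E13.5 to P0 was -1.54 ± 0.16 on the log2 scale (standard error, edgeR adjusted p = 1.67e-05).

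*Uhrf1*, which reads half-methylated DNA (ENSMUSG00000001228.14, chr17:56303321-56323486, plus strand), fell by as much between the first and last stage. Its levels were 190, 215 and 230 CPM at E13.5, 118, 133 and 160 CPM at E14.5, 133, 141 and 159 CPM at E15.5, 70.9, 86.6 and 120 CPM at E16.5, and 60.7, 60.6 and 97.5 CPM at P0. E14.5 and E15.5 overlapped in full (log2 estimate 0.07 ± 0.22), while the *Dnmt1* libraries of these stages did not overlap (-0.46 ± 0.16). Neither gene passed at this step, and the difference between them was not tested. The log2 change of *Uhrf1* from E13.5 to P0 was -1.54 ± 0.22 (edgeR adjusted p = 0.000114). In both genes the highest E16.5 and P0 libraries were replicate 3.

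*Dnmt3a*, a de novo methyltransferase (ENSMUSG00000020661.15, chr12:3806007-3914443, plus strand), was the most abundant of the set per library, since CPM also reflect its long exons. Its levels were 421, 334 and 368 CPM at E13.5, 358, 345 and 317 CPM at E14.5, 242, 249 and 224 CPM at E15.5, 158, 228 and 223 CPM at E16.5, and 138, 146 and 145 CPM at P0. E13.5 and E14.5 overlapped, every E15.5 library was below every E14.5 library, and the P0 libraries were close together below all others. The log2 change from E13.5 to P0 was -1.39 ± 0.14, a 2.61-fold fall (edgeR adjusted p = 1.22e-05).

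*Dnmt3b*, the other de novo enzyme (ENSMUSG00000027478.15, chr2:153649450-153687730, plus strand), was far scarcer. It stood at 15.9, 14.2 and 16.9 CPM at E13.5, 9.17, 10.9 and 12.2 CPM at E14.5, 8.07, 10.9 and 10.6 CPM at E15.5, 6.35, 5.81 and 8.71 CPM at E16.5, and 4.83, 5.46 and 8.36 CPM at P0. Every E14.5 library was below every E13.5 library, and from E14.5 on neighbouring stages overlapped. From E13.5 to P0 it changed by -1.34 ± 0.24 on the log2 scale (edgeR adjusted p = 0.000465). Per length, the log2 ratio of *Dnmt3a* to *Dnmt3b* within a library averaged 2.87 at E13.5 and 2.86 at P0 (exact two-sided permutation p = 1). The ratio of *Dnmt3a* to *Dnmt1* rose by 0.18 on the log2 scale between these stages (exact permutation p = 0.5, and 0.625 adjusted over the 5 ratios tested), and the libraries overlapped.

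Of the TET genes, *Tet3* was the most abundant at every stage. *Tet3* (ENSMUSG00000034832.15, chr6:83362373-83459084, minus strand) stood at 215, 217 and 167 CPM at E13.5, 234, 192 and 162 CPM at E14.5, 124, 139 and 122 CPM at E15.5, 70.3, 118 and 126 CPM at E16.5, and 65.5, 142 and 98.5 CPM at P0. All E15.5 libraries lay below all E14.5 libraries, and the spread widened after that. The log2 change from E13.5 to P0 was -0.97 ± 0.27, or 1.96-fold (edgeR adjusted p = 0.00843).

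*Tet1* (ENSMUSG00000047146.17, chr10:62804570-62908996, minus strand) had the steepest fall of the TET genes. Its levels were 51.7, 45.7 and 35.1 CPM at E13.5, 56.1, 46.9 and 38.8 CPM at E14.5, 28.9, 29.6 and 26.0 CPM at E15.5, 12.3, 22.8 and 24.9 CPM at E16.5, and 10.1, 16.3 and 16.3 CPM at P0. From E14.5 to E15.5 the libraries separated, as they did from E15.5 to E16.5. From E13.5 to P0 the log2 change was -1.64 ± 0.27 (edgeR adjusted p = 0.00029). Per length and within a library, *Tet1* lost 0.62 on the log2 scale against *Tet3* (exact permutation p = 0.1, the smallest that 3 against 3 libraries can give, and 0.167 adjusted over the 5 ratios).

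*Tet2* (ENSMUSG00000040943.12, chr3:133463679-133545139, minus strand) was the gene without a call. It stood at 60.2, 58.9 and 46.5 CPM at E13.5, 47.0, 44.3 and 35.4 CPM at E14.5, 40.0, 37.5 and 32.4 CPM at E15.5, 26.4, 40.2 and 42.7 CPM at E16.5, and 21.9, 55.3 and 31.7 CPM at P0. At P0, replicate 2 lay within the E13.5 range and the other libraries below it. The log2 difference was -0.60 ± 0.28 (edgeR adjusted p = 0.0851), and without P0 replicate 2 it was -1.02 with an adjusted p of 0.0039. That library was also the highest P0 library for *Tet3* and had the highest mitochondrial share. It was the only P0 library with a Y-linked sum near 0 (0.402 CPM, against 75.4 and 139 CPM). The part of RNA quality or of sex in its *Tet2* and *Tet3* levels was not tested. The *Tet2* to *Tet3* ratio per length was -1.60, -1.37 and -1.65 on the log2 scale in the P0 libraries and averaged -1.87 ± 0.03 (SD, n = 3) at E13.5, a difference of 0.33 (exact permutation p = 0.1).

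The catalytic subunits of PRC2 moved in opposite directions. *Ezh2* (ENSMUSG00000029687.16, chr6:47530139-47595341, minus strand) was at 136, 164 and 132 CPM at E13.5, 106, 100 and 102 CPM at E14.5, 64.4, 72.7 and 81.4 CPM at E15.5, 35.5, 40.0 and 56.2 CPM at E16.5, and 24.7, 31.9 and 60.0 CPM at P0. Each stage up to E16.5 lay wholly below the stage before it, and P0 replicate 3 was higher than all E16.5 libraries. Its log2 change from E13.5 to P0 was -1.89 ± 0.28 (edgeR adjusted p = 0.000122), and it ranged from -2.32 to -1.62 when single libraries were left out.

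*Ezh1* (ENSMUSG00000006920.14, chr11:101191115-101226463, minus strand) was at 30.1, 26.7 and 26.99 CPM at E13.5, 32.5, 30.7 and 26.4 CPM at E14.5, 32.9, 31.1 and 31.1 CPM at E15.5, 35.7, 40.9 and 35.2 CPM at E16.5, and 36.9, 43.6 and 42.8 CPM at P0. All E16.5 and P0 libraries were above all libraries of the 3 earlier stages. The rise from E13.5 to P0 was 1.47-fold, 0.56 ± 0.12 on the log2 scale (edgeR adjusted p = 0.00146).

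The ratio of *Ezh1* to *Ezh2* within a library does not depend on the scaling between libraries. Per length its log2 value was -2.34, -2.78 and -2.44 at E13.5, -1.86, -1.86 and -2.11 at E14.5, -1.12, -1.38 and -1.54 at E15.5, -0.15, -0.12 and -0.83 at E16.5, and 0.42, 0.30 and -0.64 at P0. The transcript level of *Ezh2* was therefore 5.73-fold that of *Ezh1* at E13.5, 3.84-fold at E14.5, 2.55-fold at E15.5 and 1.29-fold at E16.5, and at P0 *Ezh1* was the higher of the pair in 2 of 3 libraries. From E13.5 to P0 the ratio rose by 2.54 on the log2 scale (exact two-sided permutation p = 0.1, the smallest possible, and 0.167 adjusted over the 5 ratios). The libraries of these 2 stages did not overlap.

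**Figure D3:**
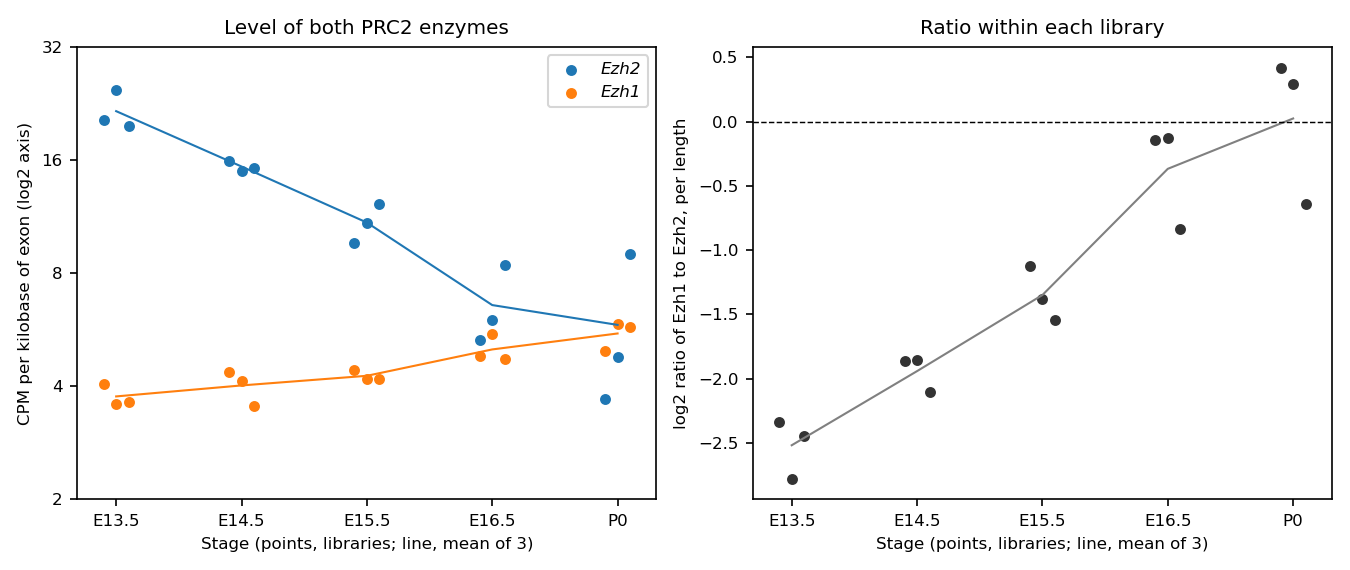
Left, levels of *Ezh1* and *Ezh2* per kilobase of exon on a log2 axis by stage. Right, the log2 ratio of *Ezh1* to *Ezh2* in each library. Points are libraries, lines join the means of 3, and the dashed line marks equal levels, which the P0 mean of 0.02 reaches.

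*Suz12*, the core subunit (ENSMUSG00000017548.15, chr11:79993106-80034123, plus strand), changed less than *Ezh2*. Its levels were 82.9, 95.1 and 80.3 CPM at E13.5, 88.2, 75.3 and 84.4 CPM at E14.5, 57.7, 77.0 and 82.7 CPM at E15.5, 40.6, 49.1 and 58.5 CPM at E16.5, and 34.3, 54.7 and 64.3 CPM at P0. All neighbouring stages overlapped, while every P0 library was below every E13.5 library. The log2 change from E13.5 to P0 was -0.75 ± 0.21, or 1.69-fold (edgeR adjusted p = 0.00946), and without single libraries it ranged from -0.92 to -0.50.

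Over the 5 stages together, 9 of the 10 genes passed the quasi-likelihood F test, and the background was 59.1% of all tested genes. Adjusted p values ran from 4.03e-05 for *Dnmt3a* to 0.0120 for *Suz12*, and *Tet2* had 0.234 (edgeR). Single steps were harder to resolve. From E13.5 to E14.5 none of the 10 genes passed in edgeR or in DESeq2, beside 0.00903% of all tested genes in edgeR. At an unadjusted p under 0.05 there were 2, *Uhrf1* (-0.63, edgeR adjusted p = 0.211) and *Dnmt3b* (-0.55, adjusted p = 0.277). The libraries of 4 genes did not overlap at this step, as in 29.2% of all tested genes.

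From E14.5 to E15.5 only *Dnmt3a* passed, with a log2 change of -0.51 ± 0.14 (edgeR adjusted p = 0.0193), where 26.1% of all tested genes did, 13.4% lower and 12.7% higher. That call was lost with upper-quartile scaling (-0.38, adjusted p = 0.0658), without a filter on low counts (0.0539), and without E14.5 replicate 1 (0.0743), E14.5 replicate 2 (0.0570) or E15.5 replicate 3 (0.0752). *Dnmt1* (-0.46, edgeR adjusted p = 0.0528) and *Tet1* (-0.75, adjusted p = 0.0527) missed the threshold and passed in DESeq2, with adjusted p of 0.0407 and 0.0371. *Tet3* was at -0.61 (edgeR adjusted p = 0.111). Of 6 neural markers 2 fell at the same step, *Tubb3* (-1.57, edgeR adjusted p = 0.0310) and *Elavl3* (-1.55, adjusted p = 0.0327), beside the 26.1% of all tested genes. The median of the 6 was -1.14. DESeq2 called 3 of them lower and 1 higher, where 3552 of 22151 tested genes were lower and 3656 higher. The summed level of the neural markers was 3613, 2561 and 1637 CPM in E14.5 replicates 1, 2 and 3 and 750 to 1464 CPM at E15.5. *Dnmt3a*, *Tet1* and *Tet3* were likewise highest in E14.5 replicate 1 and lowest in replicate 3, and so were *Dnmt1*, *Tet2* and *Ezh1*. Of these, *Tet2* was at -0.21 and *Ezh1* at 0.09 for this step, and neither passed. *Uhrf1* and *Dnmt3b* were lowest in E14.5 replicate 1 and highest in replicate 3. So was the sum of the mesenchyme markers (1547, 2706 and 3731 CPM in replicates 1, 2 and 3). The sums of the skeletal muscle markers (203, 298 and 840 CPM) and of the S phase genes (1292, 1480 and 1757 CPM) had this order too. At this step 6 of 7 osteoblast, 5 of 7 skeletal muscle, 4 of 6 macrophage, 2 of 7 epithelium and 1 of 7 mesenchyme markers rose, and 1 of 7 erythroid markers fell. The part of these cell types in the differences of *Dnmt3a*, *Dnmt1*, *Tet1* and *Tet3* was not tested. The libraries of 5 genes did not overlap, as in 51.3% of all tested genes.

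From E15.5 to E16.5 none passed in edgeR or DESeq2, beside 1.41% of all tested genes in edgeR (1.03% higher and 0.379% lower). At an unadjusted p under 0.05 there were 5, *Ezh2* (-0.73), *Uhrf1* (-0.64), *Suz12* (-0.55), *Dnmt3b* (-0.50) and *Dnmt1* (-0.45), with edgeR adjusted p of 0.126 to 0.227. The libraries of 5 genes did not overlap, *Dnmt1*, *Uhrf1*, *Tet1*, *Ezh2* and *Ezh1*, as in 31.2% of all tested genes. From E16.5 to P0 none passed in edgeR, beside 0.352% of all tested genes (0.19% higher and 0.163% lower), and 2 had an unadjusted p under 0.05. These were *Dnmt3a* (-0.50, edgeR adjusted p = 0.162) and *Dnmt1* (-0.44, adjusted p = 0.309). *Dnmt3a* passed there in DESeq2 (adjusted p = 0.0327) and in edgeR without E16.5 replicate 1 (-0.66, adjusted p = 0.0306). It was also the only one of the 10 genes whose E16.5 and P0 libraries did not overlap, as in 11.6% of all tested genes.

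Genes of DNA replication were set beside these steps, since maintenance methylation belongs to the S phase. A list of 20 S phase genes held, among others, the replicative helicase genes *Mcm2* (log2 change -1.70) and *Mcm4* (-1.84). It fell in full from E13.5 to P0, where 26.8% of all tested genes fell. The list had a median of -1.10 against 0.03 over all tested genes. By steps its medians were -0.50, 0.07, -0.49 and -0.23, and the medians of all tested genes were 0.02, 0.03, 0.00 and 0.00. No single gene of the list passed at a step in edgeR, where 17, 0, 15 and 4 had an unadjusted p under 0.05, and DESeq2 called 3, 0, 1 and 0. *Uhrf1* (-0.63, 0.07, -0.64 and -0.34) and *Dnmt3b* (-0.55, -0.12, -0.50 and -0.17) had their lowest estimates at the first and the third step, as the list did. The maintenance gene *Dnmt1* (-0.19, -0.46, -0.45 and -0.44) did not. Its smallest change was at the first step, and its estimate was -0.46 at the second, where the list did not fall. *Ezh2* (-0.49, -0.50, -0.73 and -0.18) and *Suz12* (-0.06, -0.19, -0.55 and 0.05) had their lowest estimates at the third step. At the step from E14.5 to E15.5, where the list's median was just above 0 and 2 of 6 neural markers fell, the estimates were -0.75 for *Tet1*, -0.61 for *Tet3* and -0.51 for *Dnmt3a*. *Dnmt3a* had an estimate of nearly the same size from E16.5 to P0 (-0.50). The difference between these courses was not tested. From E13.5 to P0, the 4 genes with E2F letters in a promoter window changed by -1.54 (*Dnmt1* and *Uhrf1*), -1.89 (*Ezh2*) and -0.75 (*Suz12*). Genes whose windows held no match were at -1.64 (*Tet1*), -1.39 (*Dnmt3a*), -1.34 (*Dnmt3b*), -0.97 (*Tet3*), -0.60 (*Tet2*, not passed) and 0.56 (*Ezh1*). The ranges of the 2 groups overlapped, and a difference between the groups was not tested.

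**Figure D4:**
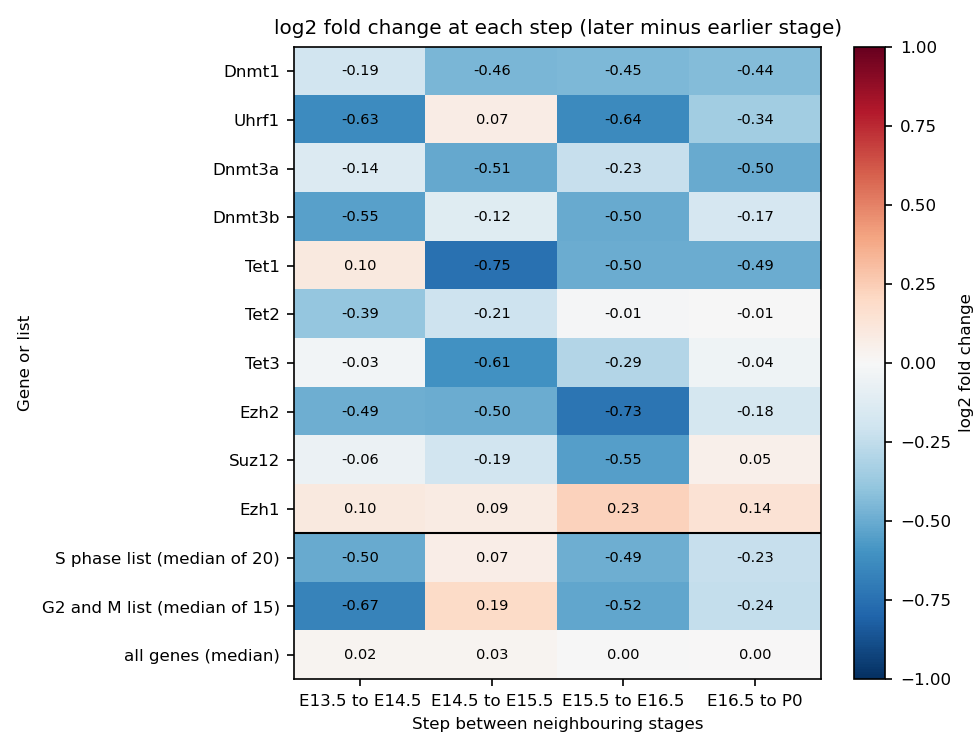
Log2 fold change of each gene at the 4 steps between neighbouring stages (columns), with the medians of 20 S phase genes, 15 G2 and M phase genes and all tested genes below the line. Blue is lower and red higher in the later stage. *Uhrf1* and the cell cycle lists are near 0 or above it at the step from E14.5 to E15.5, where *Tet1* is at -0.75.

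The summed level of the S phase genes was 2018 to 2300 CPM at E13.5, 1292 to 1757 at E14.5, 1447 to 1632 at E15.5, 939 to 1319 at E16.5 and 762 to 1145 CPM at P0. Replicate 3, at P0 the shallowest library, was the highest for the list at E16.5 and at P0, as it was for *Dnmt1*, *Uhrf1*, *Dnmt3b*, *Ezh2* and *Suz12*. Against the mean log2 level of the list, *Dnmt1* went from 1.82 at E13.5 to 1.43 at P0, *Uhrf1* from 1.30 to 0.90, and *Ezh2* from 0.74 to -0.08. *Suz12* went from 0.00 to 0.37, *Tet3* from 1.21 to 1.35 and *Ezh1* from -1.62 to 0.10. Single *Ezh2* libraries ranged from 0.49 to 0.98 at E13.5 and from -0.57 to 0.33 at P0. Those of *Suz12* ranged from -0.22 to 0.19 and from -0.10 to 0.79. These values are not per length, so their sign does not compare levels. A difference between the 2 genes in this change was not tested. Of 15 G2 and M phase genes 14 fell from E13.5 to P0 (median -1.29), where 26.8% of all tested genes fell. The sum of the 15 went from 2001 to 2220 CPM to 681 to 1248 CPM. The part of fewer dividing cells in the falls was not tested.

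The genes whose course over the 15 libraries was nearest to each of the 9 members past the five-stage test, *Tet2* being left out, were ranked by the root-mean-square difference of centred log2 CPM over 16509 genes. This describes likeness only. *Uhrf1* was nearest to *Bub1b* (0.0721), *Top2a* (0.0724) and *Fanci* (0.0771), which act in the spindle checkpoint, in untangling DNA and in DNA crosslink repair. *Dnmt1* was nearest to *Nvl* (0.0795), *Rbm14* (0.0818) and *Sfpq* (0.0879). *Dnmt3a* was nearest to *Myh10* (0.0793), followed by *Anapc1* (0.1094) and the H3K9 methyltransferase gene *Setdb1* (0.1099). *Tet1* was nearest to *Kmt2a* (0.123), which encodes an H3K4 methyltransferase, and *Tet3* to *Zfp609* (0.0733). For *Ezh2* the first neighbour was *Pot1b* (0.133), the furthest of the first neighbours of the 9 members but little beyond that of *Tet1*. The nuclear lamina gene *Lmnb1* (0.149) was among its nearest 3. *Ezh1* was nearest to *Itga3* (0.0880), *Suz12* to *Caap1* (0.0880), with the chromatin remodeller *Smarca5* second (0.119), and *Dnmt3b* to *Arhgap19* (0.107). Within the set the nearest pairs were *Dnmt3b* with *Uhrf1* (0.164) and *Dnmt1* with *Dnmt3a* (0.179).

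Partners of the 10 genes mostly fell too. Of 19 tested DNA methylation partners, 15 passed between E13.5 and P0, 11 lower and 4 higher, with a median of -0.68. Of all tested genes 56.6% passed, 26.8% lower and 29.8% higher, which is the background for this list and the 3 that follow. The largest falls were those of *Zfp57* (-2.36 ± 0.29, standard error), which protects methylation at imprinted loci, and *Hells* (-2.33 ± 0.33), a remodeller needed for DNA methylation. The largest rises were those of *Gadd45b* (1.28 ± 0.26), linked to demethylation, and *Mbd2* (1.03 ± 0.14), a reader of methylated DNA. *Dnmt3l*, the cofactor of de novo methylation in germ cells, had 0 to 12 counts in a library and was not tested.

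Of 9 PRC2 partners, 5 fell and 1 rose from E13.5 to P0 (median -0.69), a called share near the background. The falls were led by *Mtf2* (-1.99 ± 0.27), a Polycomb-like subunit that brings PRC2 to CpG islands, and *Epop* (-1.35 ± 0.28). The rise was that of *Phf19* (0.93 ± 0.22), another Polycomb-like subunit, which already stood out from E14.5 to E15.5 (1.13 ± 0.22, edgeR adjusted p = 0.00436). *Eed*, the core subunit that binds methylated H3K27 and was chosen here after its values were seen, fell by 0.70 (edgeR adjusted p = 0.00625).

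Polycomb repressive complex 1 (PRC1) compacts chromatin that carries the PRC2 mark and ubiquitinates histone H2A. Of its 20 subunit genes, 12 fell and 1 rose (median -0.68), with *Cbx2* (-1.90 ± 0.44) and *Rybp* (-1.77 ± 0.29) lowest and *Cbx6* (0.39 ± 0.09) as the rise. All 6 genes of the opposing enzymes fell (median -0.99). Among these were *Kdm6b*, an H3K27 demethylase (-1.16 ± 0.18), and *Asxl3*, a cofactor of the H2A deubiquitinase (-2.76 ± 0.33). From E14.5 to E15.5, 7 of the DNA methylation partners fell and 2 rose, 3 PRC2 partners fell and 1 rose, 6 PRC1 genes fell and 1 rose, and 3 of the opposing enzymes fell, where 26.1% of all tested genes passed, 13.4% lower and 12.7% higher. The medians of the 4 lists at that step were -0.31, -0.17, -0.40 and -0.41, against 0.03 over all tested genes.

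Markers of other cell types moved between the same stages. The background from E13.5 to P0 was 56.6% of all tested genes passing, 26.8% lower and 29.8% higher. From E13.5 to P0, 6 of 7 osteoblast, 5 of 7 epithelium, 5 of 7 skeletal muscle, 6 of 6 macrophage and 2 of 5 endothelial markers rose, and none of these lists had a fall. Of 7 palate mesenchyme markers 4 fell and 1 rose, of 6 neural markers 2 fell and 1 rose, and of 7 erythroid markers 1 fell. The summed level of the osteoblast markers went from 1288 to 1972 CPM at E13.5 to 18171 to 35107 CPM at P0. That of muscle went from 225 to 389 CPM to 2677 to 13926 CPM, that of epithelium from 253 to 574 CPM to 964 to 2723 CPM, and that of macrophages from 50.7 to 78.3 CPM to 255 to 399.7 CPM. The part of this change of cell types in the falls of the 8 genes, or in the rise of *Ezh1*, was not tested.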

How the data were processed

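Bulk RNA sequencing of 15 palate libraries (5 stages, 3 pools each) was used. The authors deposited raw counts per gene, which per the file headers were made with featureCounts 2.0.1 from read pairs counted on the reverse strand against an annotation named GENCODE M18. Per the submitters' processing notes, the tools included cutadapt 3.4, FastQC 0.11.9, HISAT2 2.2.1 and SAMtools 1.12, and the build was mm10. No duplicate-removing option stood in that command, so copied fragments can inflate counts. Symbols were taken from GENCODE M21 for 54079 of 54232 genes. Positions are those of the table, of which 97.7% were identical in M21. Genes that overlap the 10 members had at most 34 counts in a library.

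Stages came from the labels. Members and lists were chosen with earlier results of these data known. Genes were filtered with filterByExpr (minimum count 10), TMM-scaled (trimmed mean of M values) and modelled with edgeR 4.0.16 under R 4.3.3, with each stage as a coefficient and all 15 libraries in 1 fit (common biological coefficient of variation 0.332). P values were adjusted by Benjamini-Hochberg over 22151 genes. The F statistic and the fold change gave the standard errors. CPM used TMM-adjusted totals, and log2 CPM a prior count of 2. Ratios of 2 genes used counts plus 0.5 per exon length and an exact two-sided permutation test. Replicates differed by far more than counting error (chi-square over its degrees of freedom, 29.5 to 225). The procedure was tested on simulated data. Tested genes named from a list for their change, *Eed* aside, were among the 2 largest rises or 2 largest falls of its called genes. The comparison was E13.5 with P0 or E14.5 with E15.5, and not all genes so selected are named. Alternatives were DESeq2 1.42.0, its size factors or upper-quartile scaling in edgeR, no filter, a mean of at least 1 CPM, only the 6 libraries compared, a replicate block, and leaving out each library.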

Additional observations from a re-analysis of the deposited data

How the results depend on the processing

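The 9 calls from E13.5 to P0 held under DESeq2, both other scalings, both other filters, the replicate block and the fit to 6 libraries, and the count was 9 to 10 when single libraries were left out, as it was over the 5 stages (10 without P0 replicate 2, which adds *Tet2*). From E14.5 to E15.5 the count of 1 became 3 with DESeq2 (all genes, 7208 of 22151) and 0 with upper-quartile scaling (5431 of 22151). With no filter it was 0 (4499 of 37998), and with only the 6 libraries it was 5 (6569 of 20313). Without single libraries it was 0 to 2, beside 2320 to 5816 of all tested genes. From E16.5 to P0 it was 1 with DESeq2 (all genes, 663 of 22151) and 0 to 1 without single libraries (all genes, 10 to 216). Upper-quartile scaling moved the median log2 change of all genes from 0.03 to 0.16 at the step from E14.5 to E15.5 and turned its 2803 rises and 2970 falls into 3424 and 2007. Replicate numbers did not pair the samples (correlation of deviations -0.30 to 0.55 over 30 pairs, 9 above 0.1). With the replicate block 2 genes passed from E14.5 to E15.5 (*Dnmt1* added) and 1 from E15.5 to E16.5 (*Uhrf1*, -0.67, edgeR adjusted p = 0.0327). Of all 22151 tested genes 5860 and 422 passed with the block at these steps.

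Over all genes, the count from E13.5 to E14.5 went from 2 to 1000 with DESeq2, 135 with the block, 6 with no filter, 1 with the CPM filter and 0 with 6 libraries. From E15.5 to E16.5 it went from 312 to 2094 with DESeq2 and 0 with 6 libraries, and from E16.5 to P0 from 78 to 663, 25 with no filter, 35 with the block and 0 with 6 libraries. Without single libraries these counts were 0 to 28 from E13.5 to E14.5, 0 to 504 from E15.5 to E16.5 and 10 to 216 from E16.5 to P0. From E14.5 to E15.5 the 5773 genes became 2320 or 3259 when the first or the second E14.5 library was dropped, and 2975 or 3010 when the second or the third E15.5 library was. The background shares of single steps thus also move with single libraries.

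Signs turned for differences that passed no test in the fit reported. For *Tet2* these were, from E15.5 to E16.5, 0.00012 with DESeq2 and 0.000100333 with its size factors, and from E16.5 to P0, 0.00884 with DESeq2, 0.00887 with its size factors, 0.0243 with upper-quartile scaling, 0.0313 with the CPM filter and 0.0238 with 6 libraries. *Dnmt3b* was at 0.00775 from E14.5 to E15.5 with upper-quartile scaling. Without single libraries, the ranges from E13.5 to E14.5 were -0.170 to 0.0974 for *Tet3*, -0.106 to 0.0225 for *Suz12* and -0.0430 to 0.230 for *Tet1*. From E14.5 to E15.5 they were -0.0328 to 0.192 for *Uhrf1* and -0.00591 to 0.142 for *Ezh1*, and from E15.5 to E16.5 -0.139 to 0.165 for *Tet2*. From E16.5 to P0 they were -0.458 to 0.263 for *Tet2*, -0.369 to 0.1999 for *Tet3*, -0.151 to 0.269 for *Suz12*, -0.637 to 0.0627 for *Ezh2* and -0.442 to 0.0249 for *Dnmt3b*. The change in the log2 ratio of *Dnmt3a* to *Dnmt3b* from E13.5 to P0 ranged from -0.145 to 0.217 without single libraries. The cause was not tested. With 3 libraries a stage, exact tests cannot go below p = 0.1.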

Other observations

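Levels of 12 germline genes that promoter methylation is known to hold silent in somatic cells were also read. Of these, 6 were too low to test, among them *Sycp1* and *Asz1* with at most 3 counts in a library and *Tex101* and *Hormad1* with at most 1. Of the 6 tested, *Brdt* rose from 6.502 to 9.53 CPM between E13.5 and P0 (log2 change 0.55 ± 0.19, edgeR adjusted p = 0.0263) and *Ddx4* fell from 1.76 to 0.678 CPM (-1.35 ± 0.43, adjusted p = 0.0179). *Mov10l1* also passed, higher at P0, but had only 0, 1 and 2 counts in the E13.5 libraries and 22, 13 and 6 in the P0 libraries, so no fold is given. These 3 calls among 6 tested genes stand beside 56.6% of all tested genes.

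Of 6 tested cell cycle inhibitor genes, 3 rose from E13.5 to P0 and none fell, a called share near the 56.6% of all tested genes. Of all tested genes 29.8% rose and 26.8% fell. The median of the 6 was 0.90, against 0.03 over all tested genes. *Cdkn1a* went from 27.4 to 317 CPM (3.53 ± 0.33 on the log2 scale) and *Cdkn2b* from 0.416 to 3.71 CPM (3.15 ± 0.49). *Cdkn2a*, a known target of Polycomb silencing, had 1 to 20 counts in a library and was not tested.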
